A study of Mus musculus with 4 samples.

Results

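The blood vessels of the dorsal root ganglion (DRG), the nodule next to the spinal cord that houses sensory neurons, were followed through 9 genes of the cells that build a vessel wall. The 9 were taken by gene symbol from the 48431 entries of the deposited table: Pecam1, Cldn5, Cdh5, Kdr, Flt1 and Tek for endothelial cells, which line the vessel, and Pdgfrb, Acta2 and Myh11 for mural cells, the pericytes and smooth muscle cells around them. RNA had been taken from DRG of male mice labelled strain SW and genotype WT that had received methylglyoxal (MGO), a reactive by-product of glycolysis, intraperitoneally at 2 mg/kg for 6 days. All 4 libraries belong to this 1 group. A vehicle group was not analysed here, and no value given for these genes is an effect of MGO. The labels give neither the age of the mice nor whether the libraries came from separate or pooled animals, so the spread between libraries may be technical.

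Endothelial cells are held together by VE-cadherin (Cdh5) and PECAM-1 (Pecam1) at adherens and lateral contacts and by claudin-5 (Cldn5) at tight junctions, which limit leakage between cells. Vascular endothelial growth factor A acts on them through VEGFR2 (Kdr), the main signalling receptor, while VEGFR1 (Flt1) binds the same ligand more tightly with weaker signalling and is also made as a soluble decoy. TIE2 (Tek) is the receptor of the angiopoietins, which stabilise or loosen the vessel wall. Endothelial PDGF-B recruits mural cells through PDGFRβ (Pdgfrb), the classical pericyte receptor, and smooth muscle α-actin (Acta2) and smooth muscle myosin heavy chain (Myh11) form the contractile apparatus of arterioles and veins. In the DRG, vessels around the cell bodies are known to be more permeable than those of the nerve trunk.

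Promoters are shown for the pair of VEGF receptor genes, whose order turned between libraries, and for Cldn5, which kept company with Flt1. The RefSeq table (GRCm38.p6) held a promoter for 5 of the 9 members, and the 250 bases before the annotated start are printed 5′ to 3′ on the gene's strand. Capitals mark matches on either strand. The ETS core was searched as AGGAAG. The GC box was searched as GGGCGG, which reads CCGCCC on the other strand. The TATA box was searched as TATAAA, and the cyclic AMP response element as TGACGTCA. The CArG box of muscle genes was searched by its consensus as well and had no match in any of the 5 windows. The windows of Tek and Acta2, which are not printed, held no match of any motif. No base lay in 2 matches. The windows are chr5:75978456-75978705 on the minus strand for Kdr, chr5:147726012-147726261 on the minus strand for Flt1 and chr16:18776597-18776846 on the plus strand for Cldn5.
Kdr: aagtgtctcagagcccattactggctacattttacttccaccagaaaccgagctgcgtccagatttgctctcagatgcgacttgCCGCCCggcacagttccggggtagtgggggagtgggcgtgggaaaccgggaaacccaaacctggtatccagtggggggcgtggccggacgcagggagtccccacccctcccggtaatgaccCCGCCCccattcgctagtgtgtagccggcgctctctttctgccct
Flt1: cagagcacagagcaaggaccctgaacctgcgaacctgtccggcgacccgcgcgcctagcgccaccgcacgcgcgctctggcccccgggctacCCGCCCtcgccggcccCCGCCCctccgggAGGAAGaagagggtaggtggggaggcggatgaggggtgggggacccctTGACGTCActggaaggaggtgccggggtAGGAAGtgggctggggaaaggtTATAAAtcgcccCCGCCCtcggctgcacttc
Cldn5: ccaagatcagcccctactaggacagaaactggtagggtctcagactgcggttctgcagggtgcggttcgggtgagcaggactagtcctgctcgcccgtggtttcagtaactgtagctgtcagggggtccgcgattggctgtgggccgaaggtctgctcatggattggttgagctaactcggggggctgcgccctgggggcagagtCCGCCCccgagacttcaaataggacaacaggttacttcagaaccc
Flt1 held 7 matches: 2 ETS cores, 3 GC boxes, 1 TATA box starting 31 bases before the start and 1 cyclic AMP response element starting 81 bases before it. Kdr held 2 GC boxes and Cldn5 held 1. Of 32817 promoter windows of the same length, 29.5% held the ETS core, 32.7% the GC box, 12.4% the TATA box, 1.55% the cyclic AMP response element and 1.47% the CArG box. A match describes letters only.

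Values are CPM, reads per 1000000 reads of the library. The library kit reads the 3′ ends of transcripts, where by design reads do not grow with transcript length. The table behaved as counts scaled to 1000000 per library with no scaling by length. Whether reads were free of length here was not tested, and the difference between library pairs described below went with exonic length. The smallest step between values implies 5576820 to 10138766 reads per library, and the members' 36 values correspond to 19 to 434 reads each. Replicates 1 and 2 stood apart from replicates 3 and 4. The 3 entries that share the 18S ribosomal RNA locus were listed at 0 in the former and held 8.26% and 10.8% of reads in the latter. That split has no known origin and is no group of the study, so differences between these library pairs are described without a test. Among 14817 genes averaging 1 CPM or more, the median lay 0.16 lower on the log2(CPM + 1) scale in replicates 3 and 4 (log2 difference -0.16). Rescaling without the 3 entries brought this to -0.03.

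All 9 members reached 1 CPM in all 4 libraries, as did 26.5% of all entries and 54.4% of protein-coding ones. Their means ran from 3.43 CPM for Tek to 43.7 CPM for Cldn5 with a median of 22.5 CPM, against a median of 14.3 CPM over the 14817 genes. Beyond the members, 15 of 20 endothelial, 7 of 12 pericyte and 10 of 12 smooth muscle genes reached 1 CPM in every library. Beside the 54.4% of protein-coding entries, the pericyte count was near the background. In bulk tissue, fewer cells of a type and less RNA per cell cannot be told apart.

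**Figure D1:**
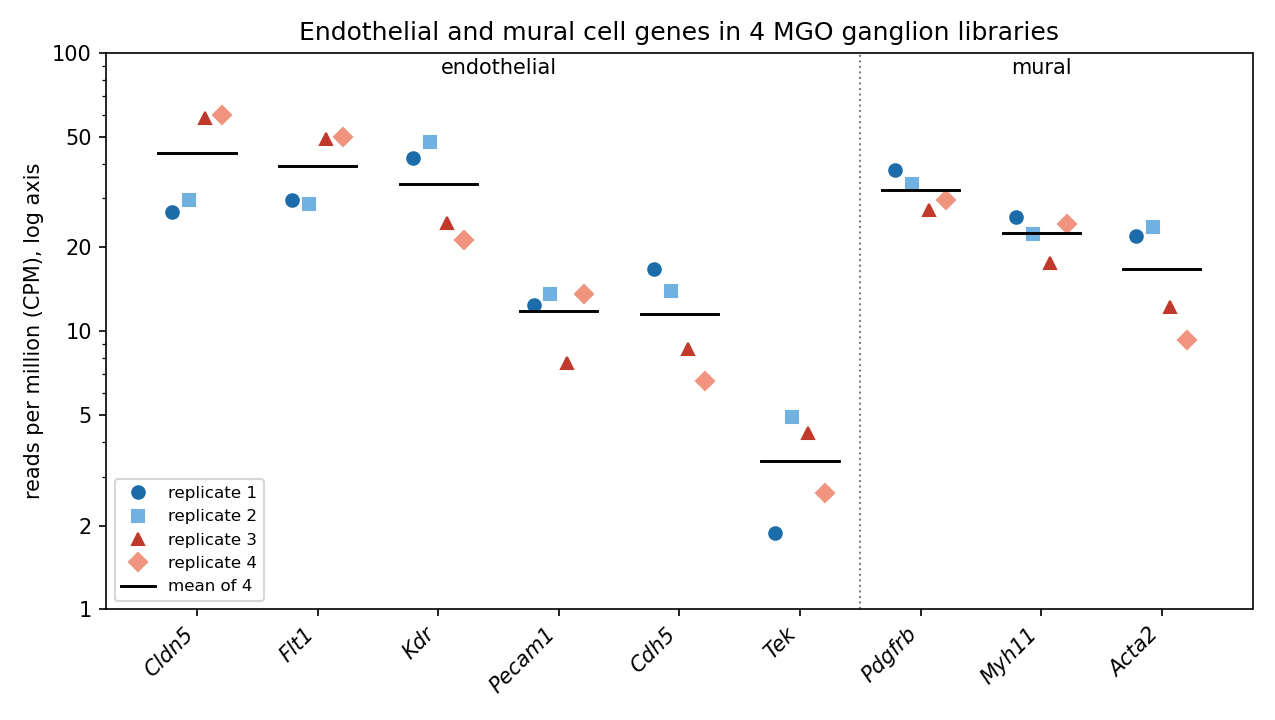
CPM (log axis) of the 6 endothelial and 3 mural genes in each of the 4 libraries, with the mean as a line. Cldn5 and Flt1 are higher in replicates 3 and 4, Kdr, Cdh5, Pdgfrb and Acta2 are higher in replicates 1 and 2, and Tek is the lowest gene in every library.

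Of the junction genes, Cldn5 (ENSMUSG00000041378.1, chromosome 16, 18776847 to 18778262, plus strand, GRCm38), the tight junction claudin, had 26.7, 29.5, 58.3 and 60.1 CPM in replicates 1 to 4, a mean of 43.7 ± 17.98 CPM (SD, n = 4). Replicates 3 and 4 were the high ones and did not overlap with replicates 1 and 2, with means 2.104-fold apart. Its mean was above that of 70.0% of the genes detected in all libraries. Cdh5 (ENSMUSG00000031871.9, chromosome 8, 104101625 to 104144511, plus strand), the cadherin of endothelial adherens junctions, had 16.8, 13.9, 8.61 and 6.64 CPM, a mean of 11.5 ± 4.68 CPM. Here replicates 1 and 2 were the high ones, again without overlap and with means 2.01-fold apart. Pecam1 (ENSMUSG00000020717.19, chromosome 11, 106654217 to 106750628, minus strand), an adhesion molecule that platelets and leukocytes carry as well, had 12.4, 13.6, 7.71 and 13.6 CPM, a mean of 11.8 ± 2.80 CPM. Only replicate 3 was low, and the library pairs overlapped.

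Cdh5 and Pecam1 could not be ranked, with a mean log2 difference of Pecam1 over Cdh5 of 0.09 ± 0.58 (SD, n = 4; exact sign-flip p = 1.0, two-sided) and Pecam1 ahead in 1 of 4 libraries. Cldn5 exceeded Cdh5 in 4 of 4 libraries by a log2 difference of 1.82 ± 1.16 (exact sign-flip p = 0.13). This p is the smallest that 4 libraries allow, so no gene pair could pass 0.05. The size of that gap differed between libraries, at 0.64 and 1.03 in replicates 1 and 2 and at 2.625 and 2.998 in replicates 3 and 4.

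Of the receptor genes, Kdr (ENSMUSG00000062960.10, chromosome 5, 75932827 to 75978458, minus strand), the signalling VEGF receptor, had 42.0, 48.0, 24.4 and 21.3 CPM, a mean of 33.9 ± 13.1 CPM. Its library pairs did not overlap, and their means were 1.97-fold apart with replicates 1 and 2 higher. Flt1 (ENSMUSG00000029648.13, chromosome 5, 147561604 to 147726011, minus strand), the VEGF receptor that also yields a soluble form, had 29.6, 28.7, 49.0 and 49.8 CPM, a mean of 39.3 ± 11.7 CPM. It went the other way, with means 1.69-fold apart and replicates 3 and 4 higher without overlap. Gene-level values do not separate its soluble from its membrane-bound transcripts.

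The order of the VEGF receptor genes therefore turned. The log2 difference of Flt1 over Kdr was -0.49 and -0.72 in replicates 1 and 2 and 0.98 and 1.19 in replicates 3 and 4, with a mean of 0.24 ± 0.98 (exact sign-flip p = 0.75, two-sided). Library scaling cancels in such a within-library difference apart from the added pseudocount of 1. Cldn5 over Flt1 stayed within -0.14 to 0.26, and Cldn5 was ahead in 3 of 4 libraries (mean 0.10 ± 0.19, exact sign-flip p = 0.375).

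Tek (ENSMUSG00000006386.15, chromosome 4, 94739289 to 94874976, plus strand), the angiopoietin receptor, had 1.87, 4.90, 4.30 and 2.63 CPM, a mean of 3.43 ± 1.41 CPM. It was the lowest member in every library, and its values did not follow the library pairs. These values stand for 19, 44, 24 and 19 reads. The 95% Poisson interval was 1.13 to 2.93 CPM in replicate 1 and 3.56 to 6.58 CPM in replicate 2, so these libraries differed by more than counting error.

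Among mural genes, Pdgfrb (ENSMUSG00000024620.11, chromosome 18, 61045150 to 61085061, plus strand), the pericyte receptor that fibroblasts also carry, had 37.97, 33.8, 27.3 and 29.6 CPM, a mean of 32.2 ± 4.72 CPM. Replicates 1 and 2 were higher without overlap, but their mean was only 1.26-fold that of the others. Myh11 (ENSMUSG00000018830.8, chromosome 16, 14194535 to 14291372, minus strand), the smooth muscle myosin, had 25.7, 22.3, 17.6 and 24.2 CPM, a mean of 22.5 ± 3.55 CPM, and its library pairs overlapped. Acta2 (ENSMUSG00000035783.8, chromosome 19, 34241090 to 34255590, minus strand), the smooth muscle actin, had 21.9, 23.7, 12.2 and 9.27 CPM, a mean of 16.8 ± 7.11 CPM. Replicates 1 and 2 were higher without overlap and their mean was 2.13-fold that of replicates 3 and 4.

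Pdgfrb exceeded Myh11 in 4 of 4 libraries by a log2 difference of 0.50 ± 0.15 (exact sign-flip p = 0.13), with separate ranges. Myh11 and Acta2, both contractile genes, could not be ranked (0.48 ± 0.59, exact sign-flip p = 0.25, Myh11 ahead in 3 of 4). Acta2 has close relatives among the actins, and the treatment of reads that match several of them is not given in the sources used here. Acta1, the skeletal muscle actin, had 269, 281, 259 and 217 CPM (mean 256 ± 27.6), the library pairs lying close together without overlap. Actc1, the cardiac actin, and Actg2, the enteric smooth muscle actin, stayed below 1 CPM in all libraries. The cytoplasmic actin genes Actb (5213 ± 1221 CPM) and Actg1 (2404 ± 1857 CPM) were far more abundant.

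In the order of mean CPM the members stood as Cldn5, Flt1, Kdr, Pdgfrb, Myh11, Acta2, Pecam1, Cdh5 and Tek. Of the 36 gene pairs, 26 had the same direction in all 4 libraries and 24 had separate ranges. In 5 pairs the order turned between replicates 1 and 2 and replicates 3 and 4: Kdr with Flt1, Cldn5 and Pdgfrb, and Pdgfrb with Flt1 and Cldn5. Of the 8 pairs of neighbours, 6 lacked a single direction, and only Pdgfrb over Myh11 and Cdh5 over Tek held it. Cdh5 exceeded Tek by 1.47 ± 0.79 on the log2(CPM + 1) scale (exact sign-flip p = 0.13, 4 of 4 libraries).

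**Figure D2:**
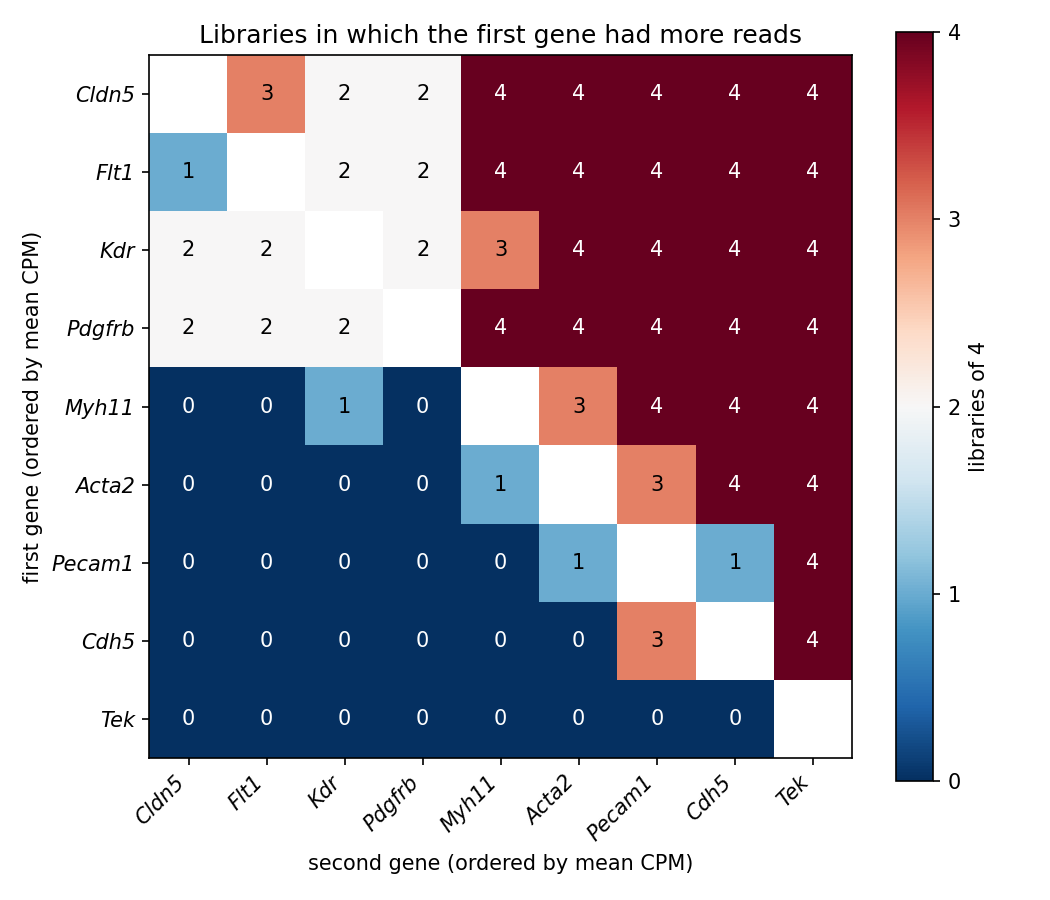
Number of the 4 libraries in which the gene of the row had a higher CPM than the gene of the column, with genes ordered by mean CPM. The 4 genes at the top left cannot be put in one order, while all of them exceeded Acta2, Pecam1, Cdh5 and Tek in 4 of 4 libraries.

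Some ratios varied little although both genes differed between libraries. The log2 difference of Kdr over Acta2 was 0.91, 0.99, 0.94 and 1.12 in replicates 1 to 4, a mean of 0.99 ± 0.09, the smallest SD among the 36 pairs. Kdr over Cdh5 was 1.48 ± 0.19 and Acta2 over Cdh5 was 0.49 ± 0.16. These 3 genes, 2 endothelial and 1 mural, thus shared their pattern, and the pair was picked after its values were seen. They share it with many others: 45.8% of the 14817 genes were lower in replicates 3 and 4 without overlap.

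Were reads to grow with length, the order would need values per kilobase, and these are given side by side. Per kilobase of exonic sequence in GENCODE M21, Cldn5, with 1416 bases of exon, led in every library at 30.8 ± 12.7 CPM per kb. Acta2 followed at 7.64 ± 3.24 and Pdgfrb at 5.87 ± 0.862 CPM per kb. Flt1, with 13504 bases, had 2.19, 2.13, 3.63 and 3.69 CPM per kb in replicates 1 to 4, and Kdr had 4.65, 5.32, 2.70 and 2.36 CPM per kb. Kdr was thus ahead in replicates 1 and 2 and Flt1 in replicates 3 and 4, so their order turned on this scale too. On both scales Tek was last in every library (0.727 ± 0.300 CPM per kb), and 28 gene pairs kept 1 direction per kilobase.

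The endothelial members summed to 129, 139, 152 and 154 CPM in replicates 1 to 4, and the mural members to 85.6, 79.8, 57.0 and 63.1 CPM. Beyond these members, the 20 further endothelial genes summed to 393, 414, 363 and 320 CPM, lower in replicates 3 and 4 without overlap. The sum of the 6 endothelial members lay somewhat higher, and the mural sum lower, in replicates 3 and 4, with no overlap in either. Their ratio was 1.51 and 1.74 in replicates 1 and 2 and 2.67 and 2.44 in replicates 3 and 4, a mean log2 difference of 1.01 ± 0.39 (SD, n = 4; exact sign-flip p = 0.13, the smallest possible, 4 of 4 libraries). The sums hold 6 and 3 genes, which sets part of that difference: on the mean of log2(CPM + 1) per gene the mural members were ahead in 4 of 4 libraries, by a log2 difference of -0.38 ± 0.30 for endothelial over mural.

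The endothelial sum varied little between libraries while its make-up varied more. Kdr gave 32.5% and 34.6% of it in replicates 1 and 2 but 16.0% and 13.8% in replicates 3 and 4. Cldn5 gave 20.7% and 21.3% and then 38.3% and 39.0%. Flt1 went from 22.9% and 20.7% to 32.2% and 32.3%. So no single member stood in for the endothelial sum across these libraries.

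**Figure D3:**
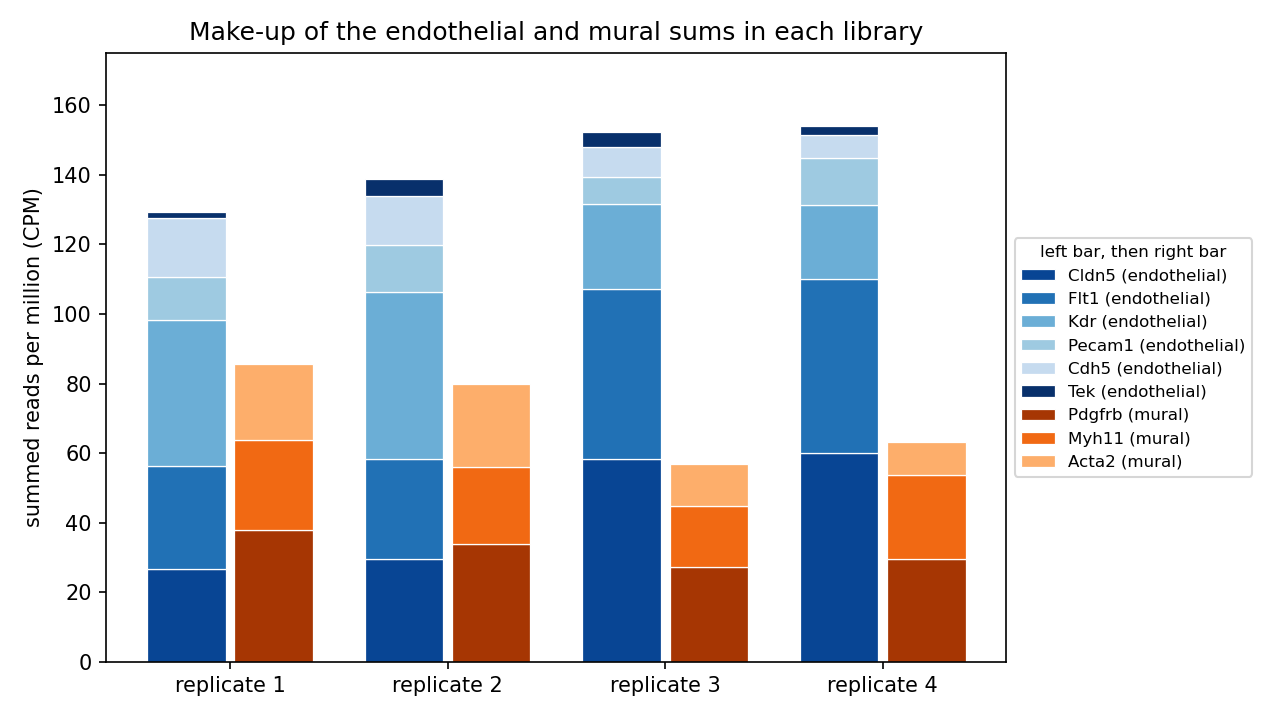
Summed CPM of the 6 endothelial genes (left bar) and the 3 mural genes (right bar) in each library, stacked by gene. The endothelial sum stays between 129 and 154 CPM while the share of Kdr is smaller and those of Cldn5 and Flt1 are larger in replicates 3 and 4, and the mural sum is lower in replicates 3 and 4.

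Between the library pairs, 3 members differed at least 2-fold without overlap, Cdh5 and Acta2 lower and Cldn5 higher in replicates 3 and 4. Over the 14817 genes, 37.0% did so, 24.1% lower and 12.8% higher, so a count of 3 of 9 is near the background. Kdr, at 1.97-fold, lay just outside the limit and Cdh5, at 2.01-fold, just inside. Without replicate 4, and after rescaling without the 3 ribosomal RNA entries, only Cldn5 remained of the 3. After that rescaling 36.4% of all genes were 2-fold apart, 20.6% lower and 15.8% higher. At any size, 6 members had no overlap, beside 78.5% of all genes: Cdh5, Kdr, Pdgfrb and Acta2 lower (45.8% of all genes) and Cldn5 and Flt1 higher (32.6%). These 6 directions were the same under each of the 3 rescalings tried.

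The difference between library pairs went with exonic length over all protein-coding genes, from a median log2 difference of -0.91 in genes under 2 kb to 0.34 in genes of 10 kb and more. Against genes of its own length class, Cldn5 stood out the most of the 9. Its log2 difference of 1.05 was above that of 97.6% of 1463 genes under 2 kb. Kdr, with 9030 bases, lay at -0.95 where the median of its class of 3090 genes was 0.04, below 87.2% of them. Cdh5 lay at -0.92 against -0.21, below 79.7% of its class. Acta2 (-1.02 against -0.51), Flt1 (0.74 against 0.34), Pecam1 (-0.27 against 0.04), Myh11 (-0.19 against 0.04), Pdgfrb (-0.32 against -0.21) and Tek (0.03 against -0.21) lay between the lower and upper quartiles of theirs.

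**Figure D4:**
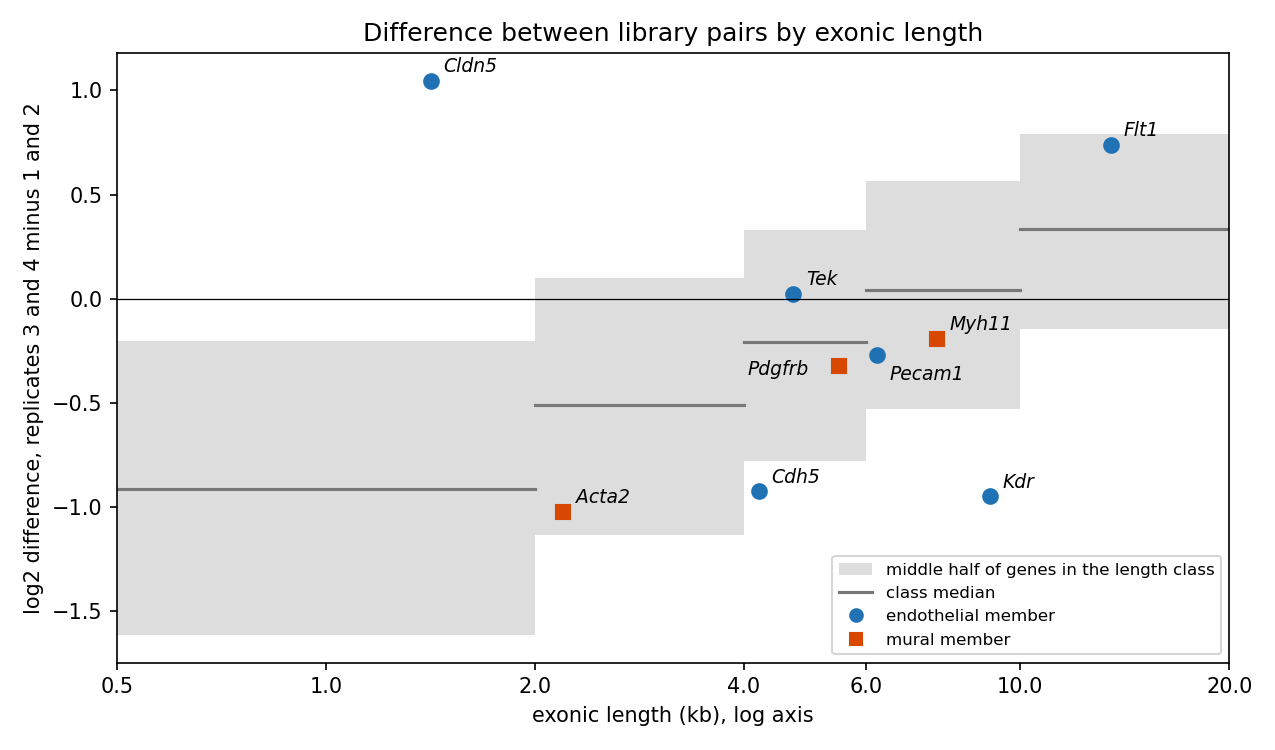
Log2 difference of CPM + 1 between replicates 3 and 4 and replicates 1 and 2 (vertical) against exonic length (horizontal, log axis), with the median and the span between quartiles of protein-coding genes in 5 length classes in grey. Cldn5 lies above the grey band of its class at 1.05, Kdr and Cdh5 lie below theirs at -0.95 and -0.92, and the other 6 members lie inside.

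Ligands and coreceptors of the VEGF receptors were measured beside them. Vegfa, the main ligand of both receptors, had 20.02, 23.2, 16.3 and 18.1 CPM (mean 19.4 ± 2.93). Vegfb and Pgf, which bind VEGFR1 but not VEGFR2, had 6.02 ± 1.18 and 8.20 ± 2.24 CPM. Vegfc, a ligand of the lymphatic receptor VEGFR3, was listed at 0 in 3 libraries and at 0.334 CPM in the other, and Flt4, the gene of VEGFR3, had 2.76 ± 1.29 CPM. Vegfd had 2.56, 0.668, 0.717 and 0.831 CPM. The neuropilin coreceptors, which axons carry too, were the most abundant of the system, Nrp2 at 107 ± 7.28 CPM and Nrp1 at 87.2 ± 39.9 CPM. For Nrp1 the libraries gave 53.5, 52.7, 129 and 114 CPM, the direction of Flt1. Of the 7 listed genes of the system with a mean of at least 1 CPM, 2 were 2-fold higher in replicates 3 and 4 and none was 2-fold lower, beside 12.8% and 24.1% of all genes.

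Around TIE2, the antagonist-type ligand gene Angpt2 (30.8 ± 3.88 CPM) exceeded the agonist gene Angpt1 (7.44 ± 2.13 CPM) in every library. Angpt4 was listed at 0 in replicates 2 and 3 and at 1.58 and 1.94 CPM in replicates 1 and 4. Tie1, the orphan partner of TIE2, had 1.35 ± 0.582 CPM, lower than Tek in 3 of 4 libraries and equal to it in replicate 1 at 1.87 CPM. Ptprb, the endothelial phosphatase that acts on TIE2 and VE-cadherin, had 11.5, 14.8, 32.6 and 36.5 CPM, with replicates 3 and 4 higher 2.62-fold and without overlap.

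Among the PDGF genes, Pdgfa, a ligand of PDGFRα, was the highest at 96.8, 86.2, 52.5 and 47.8 CPM. Pdgfb, the ligand that recruits pericytes, had 8.09, 5.57, 10.4 and 11.9 CPM. It lay below Pdgfrb in all 4 libraries. Pdgfb was higher in replicates 3 and 4 without overlap, as were 32.6% of all genes, while Pdgfrb was lower. Within each library pair both genes went in the same direction. Pdgfc had 4.66 ± 3.38 CPM and Pdgfd 0.617 ± 0.629 CPM. Pdgfra, the receptor gene of fibroblasts, had 13.0 ± 2.14 CPM.

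**Figure D5:**
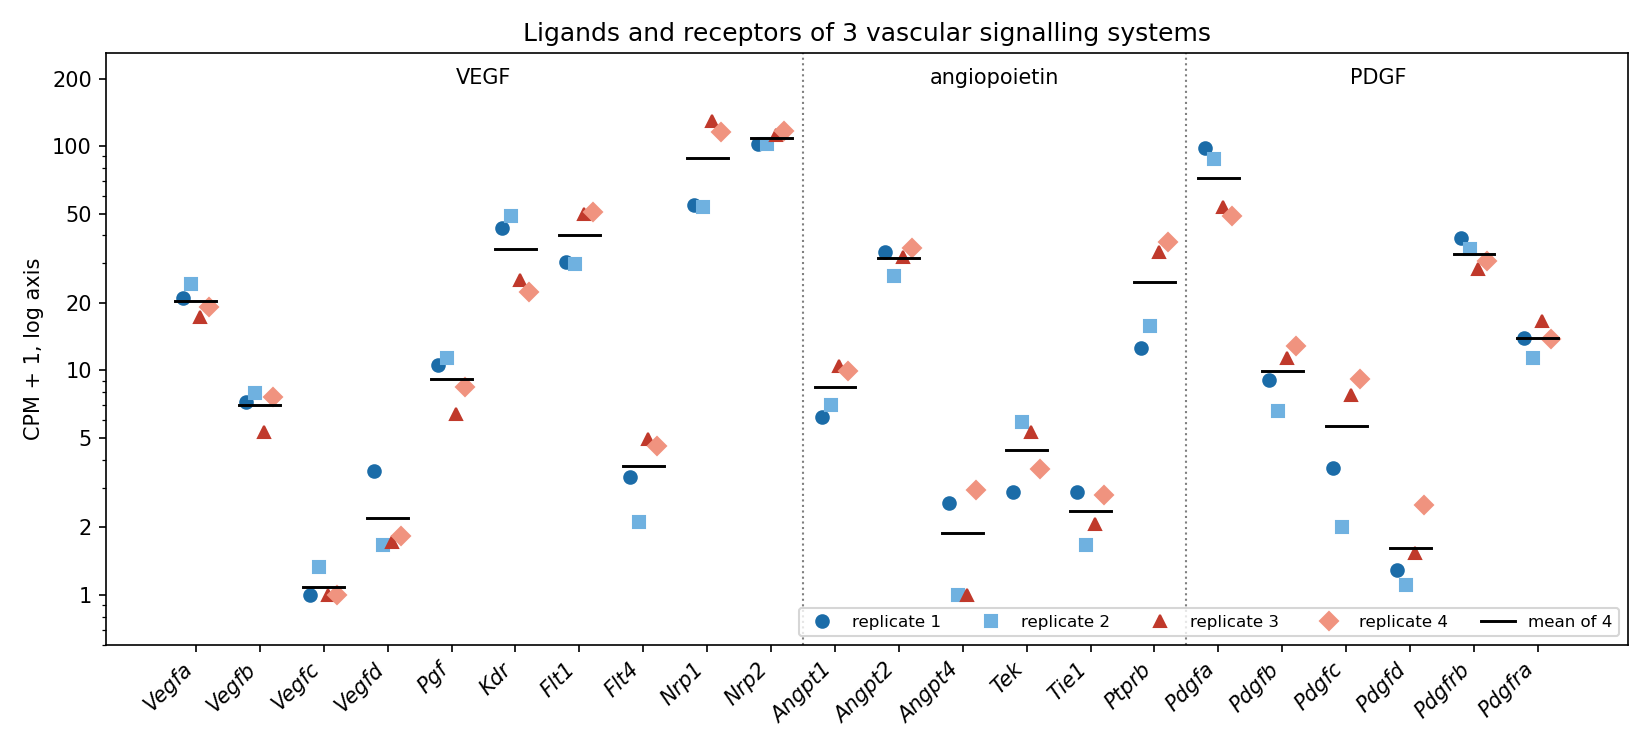
CPM plus 1 (log axis) of ligand and receptor genes of the VEGF, angiopoietin and PDGF systems in each library, with the mean as a line. Neuropilin genes and Pdgfa reach the highest levels, Vegfc and Angpt4 include libraries at 0, and Nrp1 and Ptprb, like Flt1, are higher in replicates 3 and 4.

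The further endothelial genes give the members their setting. Egfl7, a secreted endothelial factor, was the highest of 20 at 116 ± 15.3 CPM, and Sox18, an endothelial transcription factor, the lowest at a mean of 0.0903 CPM with 2 libraries listed at 0. Icam2 also stayed below 1 CPM throughout. Of the 18 with a mean of at least 1 CPM, 8 were 2-fold lower in replicates 3 and 4 without overlap and 1, Ptprb, 2-fold higher, beside 24.1% and 12.8% of all genes. Their median log2 difference was -0.44 against -0.16 over all genes. These 18 genes were not compared with genes of like length. Class medians ran from -0.91 in protein-coding genes under 2 kb to 0.34 in those of 10 kb and more. The counts of 8 and 1 were the same after rescaling without the 3 ribosomal RNA entries, beside 20.6% and 15.8% of all genes.

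Of the pericyte genes, Rgs5, a regulator of G protein signalling, was the highest at 33.3 ± 5.19 CPM. Ndufa4l2 and Cox4i2, mitochondrial genes enriched in pericytes, stayed below 1 CPM in all libraries. Of 9 with a mean of at least 1 CPM, 2 were 2-fold lower and 1 was 2-fold higher in replicates 3 and 4, near the 24.1% and 12.8% of all genes. The smooth muscle list was led by Cald1, the gene of caldesmon, at 79.0 ± 13.3 CPM, which other cell types make as well. Its lowest member was Actg2 (0.289 ± 0.339 CPM), and Myocd, the coactivator of smooth muscle genes, stayed below 1 CPM throughout. Of 10 with a mean of at least 1 CPM, 1 was lower and 1 higher by 2-fold, beside the same 24.1% and 12.8%. The count became 1 lower and 2 higher after rescaling without the 18S entries or by the median ratio. All genes then gave 20.6% and 15.8% in the former and 20.4% and 16.1% in the latter.

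Of 11 partners of the junction proteins, 10 reached 1 CPM in every library, as did 54.4% of protein-coding entries. Jup, the gene of plakoglobin, which links cadherins including VE-cadherin to the cytoskeleton, was the highest and the most divided, with 987 and 1263 CPM in replicates 1 and 2 and 60.8 and 72.3 CPM in replicates 3 and 4, 16.9-fold apart. Ocln, the tight junction gene occludin, was the lowest at 0.900 ± 0.173 CPM. Of the 10 with a mean of at least 1 CPM, 4 were 2-fold lower and none 2-fold higher in replicates 3 and 4, beside 24.1% and 12.8% of all genes. The 4 became 3 after rescaling without the 18S entries or by the median ratio, beside 20.6% and 20.4% of all genes. Barrier transport genes were all 8 detected, beside the same 54.4%. Slc7a5, an amino acid transporter of many cell types, led with 94.7, 128, 263 and 199 CPM, and Slco1c1, a thyroid hormone transporter of brain endothelium, was the lowest with 8.29, 10.2, 4.12 and 4.15 CPM. In that list 4 were 2-fold lower and 1 was 2-fold higher in replicates 3 and 4, beside the same 24.1% and 12.8%. The 4 became 3 under each of the 3 rescalings, where 20.4% to 23.3% of all genes were 2-fold lower.

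Markers of other cells also differed between the library pairs. The summed level of 5 Schwann cell markers was 27749 to 28835 CPM in the first library pair and 15885 to 16112 CPM in the second. For 6 skeletal muscle markers it was 890 to 927 against 453 to 520 CPM, for 5 fibroblast markers 1665 to 1818 against 1213 to 1405 CPM, for 5 macrophage markers 221 to 272 against 159.2 to 159.4 CPM, and for 5 red cell markers 955 to 1071 against 498 to 534 CPM. The sum of 4 satellite glia markers was 1117 to 1144 against 484 to 538 CPM. The 5 red cell markers did not share a direction: Hba-a2 was 2.42-fold and Alas2 2.28-fold higher in replicates 3 and 4, and the other 3 were lower, all without overlap. Platelet markers, which bear on Pecam1, were divided as well. Gp1bb, whose span overlaps another gene, was 3.58-fold higher in replicates 3 and 4 and carried the sum of the list, at 136 to 138 against 361 to 464 CPM. Pf4 was 4.06-fold and Itga2b 1.65-fold lower in replicates 3 and 4 without overlap, and Gp9 and Ppbp stayed below 1 CPM throughout. The sums of 5 neuronal markers overlapped, at 9003 to 9469 and 8835 to 10302 CPM. No marker in these lists was listed at 0 in all 4 libraries. Their part in the members' differences was not tested.

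Patterns like those of the sums were common. With the root mean square difference of centred log2(CPM + 1) over the 4 libraries as the measure, Flt3l (0.0122), Sptlc1 (0.0126) and Aplf (0.0168) were closest to the endothelial sum, and Mrap2 (0.0188), Eif2ak2 (0.0198) and Tmem200a (0.0212) to the mural sum. Of 8572 other genes averaging 10 CPM or more, 435 (5.07%) and 349 (4.07%) lay within 0.1.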

How the data were processed

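TRIzol extraction, removal of ribosomal RNA and a QuantSeq 3′-end library kit were used, per the labels' protocols. Per the submitters' processing notes, the tools included Cufflinks 2.2.1, Bowtie2 2.2.9, TopHat2 2.1.1 and FastQC 0.11.5, and the build was mouse GRCm38. Not given in the sources used here are the annotation, the strand setting and the handling of multiply matching reads. The header names the unit TPM, but the deposited values behaved as CPM: each library summed to 1000000, and at least 98.277% of nonzero values were whole multiples of 1 step to within 0.05. They were used as CPM. The step was taken as 1 read for depths, read numbers and Poisson intervals, which cover counting error only. No count model was run, since the design holds 1 group.

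The replicate number in each column name tied it to its sample. Positions and exonic lengths came from GENCODE M21 (GRCm38), in which 48052 entries (99.2%) matched. In it, Cdh5 is the only member whose span overlaps another entry, an antisense gene listed at 0. Vegfd is listed under an older symbol and was matched by gene ID. Members, gene lists and tests were chosen with earlier results of these data known. All 9 members are described, and of other lists the highest, the lowest, those below 1 CPM and all ligands and receptors.

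Gene pairs and sums were compared on within-library differences of log2(CPM + 1) by an exact two-sided sign-flip test over 4 libraries. Library pairs were set by whether the 3 18S entries were at 0, and a gene was called 2-fold apart when the pairs did not overlap and their means differed at least 2-fold. Python 3.11.15, numpy 2.4.6, pandas 2.3.3, scipy 1.17.1 and matplotlib 3.10.9 were used. The comparison with genes of like length and the list counts under each rescaling were chosen after seeing the data. Other settings tried were each replicate left out, 3 rescalings, other detection limits, another pseudocount, exonic length, and other backgrounds.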

Additional observations from a re-analysis of the deposited data

Results flagged for a closer look

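In 4 of 132 sets of 4 values (3.03%), 1 library lay far from the other 3. The rule flags about 1 set in 20 by chance if values are independent. These libraries fall into pairs and the sets share genes, so that rate need not hold here. The log2 difference of Acta2 over Pecam1 was -0.50 in replicate 4 and 0.60 to 0.77 in the others. Abcc9, a pericyte potassium channel subunit, had 5.95 CPM in replicate 4 and 2.34 to 2.87 CPM in the others. Vegfd had 2.56 CPM in replicate 1 and 0.668 to 0.831 CPM in the others. Bmx, a kinase of arterial endothelium, had 5.26 CPM in replicate 4 and 3.55 to 3.79 CPM in the others.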

How the results depend on the processing

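Of 100 values recomputed under other settings, 95 kept their direction and size class, 4 moved and 1 reversed. Many of the 100 were mean levels of single members or counts that these settings could hardly change, so this share does not measure robustness. The 4 that moved were counts of members 2-fold apart, and the 1 that reversed was the difference of endothelial over mural sums. The count of members 2-fold apart between library pairs, 3 as reported, ran from 1 to 4 with single replicates left out, was 1 after rescaling without the 3 18S entries and 1 after rescaling by the median ratio, and was 6 at any size without overlap. Kdr joined without replicate 1 or 3, and Cdh5 dropped out without replicate 1. Both rescalings raise values of replicates 3 and 4 against the others (median log2 difference over all genes -0.03 and -0.02 against -0.16). Over all genes, the share 2-fold apart was 36.4% without the 18S entries, 36.5% by the median ratio and 37.0% as deposited. At any size without overlap it was 78.5%. The share of genes 2-fold apart was 33.2% among those with a mean of at least 10 CPM and 34.3% among all above 0. The log2 difference of endothelial over mural sums ran from 0.88 to 1.16 with a replicate left out and turned to -0.38 on the mean of log2 values per gene, a measure that does not grow with the number of genes. At 5 CPM 8 members were detected. No paired comparison of groups was possible because all libraries belong to 1 group. Depth limits Tek most, at 19 to 44 reads per library.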

Other observations

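Only some genes of each vessel subtype reached 1 CPM in every library, so presence of the subtypes was not established. Their shares were near the 54.4% of all protein-coding entries that did so. Of 7 arterial genes, 4 reached 1 CPM in every library, led by Sema3g, an arterial semaphorin (39.9 ± 6.49 CPM), and the gap junction gene Gja5 was the lowest at 0.657 ± 0.189 CPM. Of 7 venous genes, 4 did so, led by the transcription factor gene Nr2f2 (235 ± 70.0 CPM), which other cell types express as well. The selectin genes Selp and Sele, which activated endothelium displays, stayed below 1 CPM in all libraries. Of 5 lymphatic genes, 3 reached 1 CPM throughout. Pdpn, the gene of podoplanin, led with 60.2, 54.7, 27.4 and 20.3 CPM, and the chemokine gene Ccl21a was the lowest at 0.276 ± 0.288 CPM.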
